A study of Homo sapiens with 12 samples.

Results

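The lysyl oxidase family was measured in human lung cancer cells with and without the transcription factor GFI1, attached to the dish or floating. Its 5 genes, LOX, LOXL1, LOXL2, LOXL3 and LOXL4, were taken by gene symbol from the 58735 genes of the count table. Of the 5, all but LOXL1 were among the 17829 genes with enough counts for a test, which left 4 tested members.

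A549 is an established human lung adenocarcinoma line that grows attached. GFI1 is a zinc-finger repressor known from haematopoiesis, and the comparisons concern its effect on cells with and without anchorage. The design held 4 groups of 3 libraries, namely attached control, attached GFI1, floating control and floating GFI1, and floating cells had spent 48 hours in forced suspension. All groups were A549 cells kept in RPMI1640 medium with fetal bovine serum. Per the methods of the study, GFI1 was carried by a lentivirus with a human PGK promoter and a GFP marker, and the transduced cells were sorted for GFP before RNA-Seq. The vector of the RNA-Seq controls is not given in the sources used here, so an effect of GFI1 and an effect of transduction cannot be told apart. The labels do not say that replicates came from separate cultures, so p-values measure the spread between these libraries, which may be technical.

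Lysyl oxidases are secreted copper enzymes that oxidise lysine residues of collagen and elastin to aldehydes, from which the covalent cross-links of the extracellular matrix form. LOX and LOXL1 are made with a propeptide that BMP1-type proteinases remove, whereas LOXL2, LOXL3 and LOXL4 carry scavenger receptor domains in place of it. LOX is a textbook target of the hypoxia-inducible factors, and LOX and LOXL2 have both been studied in tumour invasion.

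Of the 4 members with a promoter window, LOX is the one whose window held the hypoxia motif ACGTG, so its stretches are shown before the values. The motif was searched as ACGTG or its reverse complement CACGT in the RefSeq promoter windows of GRCh38.p14, each with 250 bases before and 50 after an annotated start. At least 1 match was present in 21.4% of the 35116 windows and 4 or more were present in 0.843%. Of the 3 LOX windows, the one nearest to the annotated 5′ end was used, and it held 4 matches. Its RefSeq start lies 154 bases inside the 5′ end of LOX in GENCODE 44. The stretch below lies upstream of that 5′ end at chr5:122078414-122078509, on the minus strand, and the next 3 lines are the other matches with 8 bases on either side. Capitals mark the match, and the position given is that of its first base from the RefSeq start.
LOX upstream stretch with the match at -185: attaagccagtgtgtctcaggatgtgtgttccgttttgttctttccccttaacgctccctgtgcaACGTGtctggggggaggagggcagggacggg
LOX match at -116, chr5:122078363-122078383: ccgccttgCACGTttccaatc
LOX match at -98, chr5:122078345-122078365: atcgcattACGTGaacaaata
LOX match at -42, chr5:122078289-122078309: ctttgcaaACGTGccagaaag
These lines are a description of letters and not of bound sites. A single window was searched for each member, the nearest to its annotated 5′ end, which for LOXL3 (2 windows) still lay 1748 bases away and for LOXL1 473. The searched windows of LOXL1, LOXL3 and LOXL4 held 0 matches to ACGTG, and that of LOXL4 had a GC content of 85.3%. A related form of the motif, GCGTG or CACGC, is present in 36.5% of windows and was in none of the 4 windows searched. The GFI1 core AATC, or GATT, is present in 69% of windows and had 2 matches in LOX, 1 in LOXL1 and 0 in LOXL3 and LOXL4. LOXL2 had no entry in this table.

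The labels were first checked on GFI1 itself. GFI1 was at 0.238, 0.543 and 0.631 CPM (counts scaled to library size with TMM factors) in attached control replicates 1, 2 and 3, and at 0.711, 0.482 and 0.680 CPM in the floating controls. It was at 290, 294 and 286 CPM in attached GFI1 cells and at 545, 706 and 430 CPM in floating GFI1 cells. Every GFI1 library stood above every control library, and GFI1 was 1.93-fold higher in floating than in attached GFI1 cells (log2 fold change 0.95 ± 0.10 SE, adjusted p = 2.38e-08). Depth ran from 17014188 to 20748677 counts per library. All 6 epithelial markers were detected in each group, with a summed level of 10390 to 10990 CPM in attached controls, 4222 to 4339 in attached GFI1 cells, 6529 to 6938 in floating controls and 3039 to 3411 in floating GFI1 cells. EPCAM, CDH1, KRT7, KRT8 and KRT18 fell with GFI1 in attached cells, and KRT19 rose. The 8 fibroblast markers summed to between 7.53 and 15.8 CPM per library, and DCN and FAP had 0 counts in every library. In these bulk libraries, fewer cells of a type and less RNA per cell cannot be told apart.

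In the attached state, GFI1 went with lower LOX and with higher LOXL2 and LOXL4. By the quasi-likelihood test of edgeR, with p adjusted after Benjamini and Hochberg, 3 of the 4 tested members passed an adjusted p of 0.05 there, 2 up and 1 down, where 62.3% of all genes tested passed. Among floating cells, 2 of 4 rose with GFI1 and none fell, against 60.4% of all genes. Suspension raised 1 of 4 members in control cells and 3 of 4 in GFI1 cells, against 40.1% and 31.3% of all genes. For the 4 members, no interaction of GFI1 with suspension passed (10.8% of all genes did), and 1 of 4, LOXL2, had an unadjusted p under 0.05. DESeq2 also called 0 interactions. Without floating GFI1 replicate 3, 3 of 4 interactions passed, where 11.8% of all genes did. That was the only left-out library for which any interaction of a member passed. Over only 4 genes, the GFI1 shares were near those of all genes. The suspension share was below that of all genes in control cells and above it in GFI1 cells, but it too rests on only 4 genes. In control cells LOXL2 also passed in some alternative fits, given below, which made the count 2 of 4. The remaining comparisons served only to order the groups, floating GFI1 against attached control (68.5% of all genes, 3 of 4 members) and floating control against attached GFI1 (57.4%, 3 of 4 members).

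**Figure D1:**
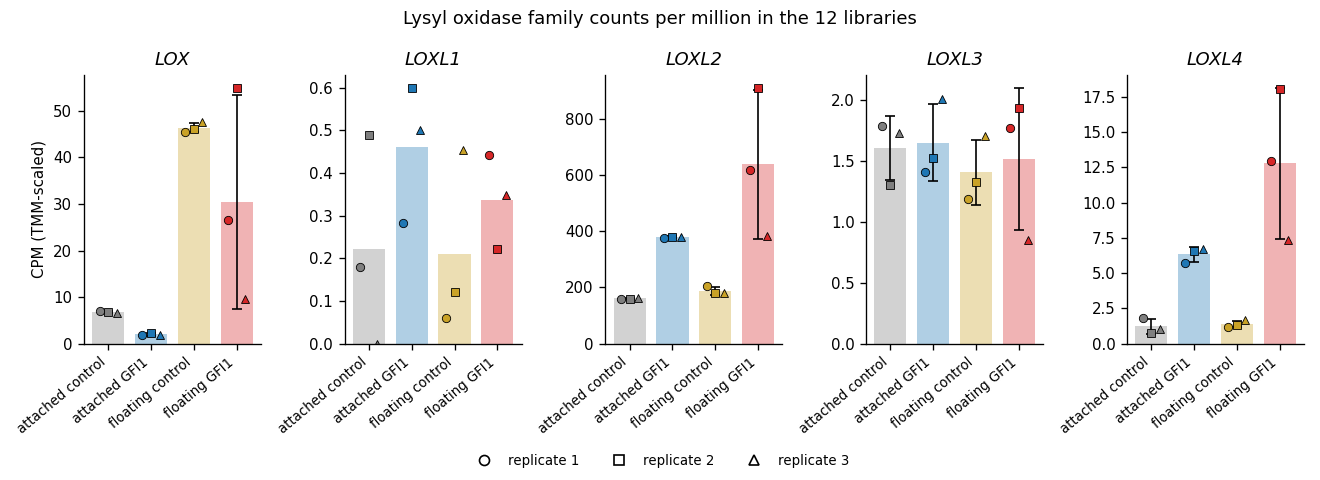
Level of each lysyl oxidase gene in CPM (y axis, its own scale in each panel) by group, with bars for the mean of 3 libraries, symbols for replicates 1 to 3 and whiskers for 1 SD, left out for LOXL1 because of its low counts. LOX was highest in floating control cells (46.4 CPM on average), and the floating GFI1 libraries of LOX, LOXL2 and LOXL4 spread the most, with replicate 2 above replicate 1 and replicate 1 above replicate 3.

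LOX, the founding enzyme of the family, lies on the minus strand of chromosome 5 (122063195 to 122078360 in hg38, as the deposited table gives it). In attached controls it was at 6.91, 6.84 and 6.66 CPM in replicates 1, 2 and 3, and in attached GFI1 cells at 1.80, 2.22 and 1.85 CPM. The 2 groups did not overlap, as was true of 67% of all genes tested in that comparison. LOX fell by 1.79 ± 0.53 (SE) on the log2 scale with GFI1, a 3.45-fold lower level (adjusted p = 0.00547). The fall rested on 116 to 126 counts per library in controls and 32 to 48 in GFI1 cells. Under robust empirical Bayes the same value had an adjusted p of 0.116, and in a fit of the attached libraries alone it had 2.35e-10.

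In suspension LOX rose in both cell types. Floating controls held 45.6, 46.1 and 47.5 CPM, a tight group far above the attached controls. The log2 fold change was 2.77 ± 0.34 (adjusted p = 2.51e-07), or 6.81-fold. Floating GFI1 cells held 26.6, 55.0 and 9.60 CPM in replicates 1, 2 and 3. Each of these was above the attached GFI1 libraries, a separation that 41.4% of all genes showed, but replicate 3 stood close to the attached controls and replicate 2 above the floating controls. The suspension effect in GFI1 cells was 3.93 ± 0.42 (adjusted p = 6.84e-08), or 15.3-fold, and it was 3.16 without floating GFI1 replicate 2 and 4.37 without replicate 3, called in both.

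With GFI1 in floating cells, LOX was -0.62 ± 0.27 on the log2 scale and did not pass (adjusted p = 0.0527), with a 95% confidence interval of -1.18 to -0.06. The SE rests on a spread shared by all groups. LOX ran from 3.28 to 5.79 in log2 CPM in floating GFI1 libraries and from 5.51 to 5.57 in floating controls, so the interval may be too narrow. The groups overlapped, since 2 of the 3 floating GFI1 libraries were below and 1 above every floating control. This value turned on single libraries. Without floating GFI1 replicate 2 it was -1.37 (adjusted p = 7.01e-09), and without replicate 3 it was -0.18 (adjusted p = 0.266). It also passed under RLE size factors (-0.63, adjusted p = 0.0465). Without a low-count filter it was -0.63 (adjusted p = 6.09e-16), but in that fit the spread of LOX itself did not enter the test. The interaction, that is the suspension effect in GFI1 cells minus that in controls, was 1.16 ± 0.61 (adjusted p = 0.265). It was 1.60 without floating GFI1 replicate 3 (adjusted p = 0.000327) and 0.39, not called, without replicate 2.

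From low to high, LOX was ordered attached GFI1 (1.96 ± 0.23 CPM, SD, n = 3), attached control (6.80 ± 0.13), floating GFI1 (30.4 ± 23.0) and floating control (46.4 ± 1.02). Floating GFI1 cells were above attached controls by 2.15 ± 0.35 on the log2 scale (adjusted p = 5.62e-06; 1.40 without floating GFI1 replicate 2, still called). The 2 floating groups overlapped, and their difference, given above, did not pass after adjustment. Between the extremes, floating control and attached GFI1, the log2 difference was 4.55 ± 0.41 (adjusted p = 4.37e-10), or 23.5-fold.

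**Figure D2:**
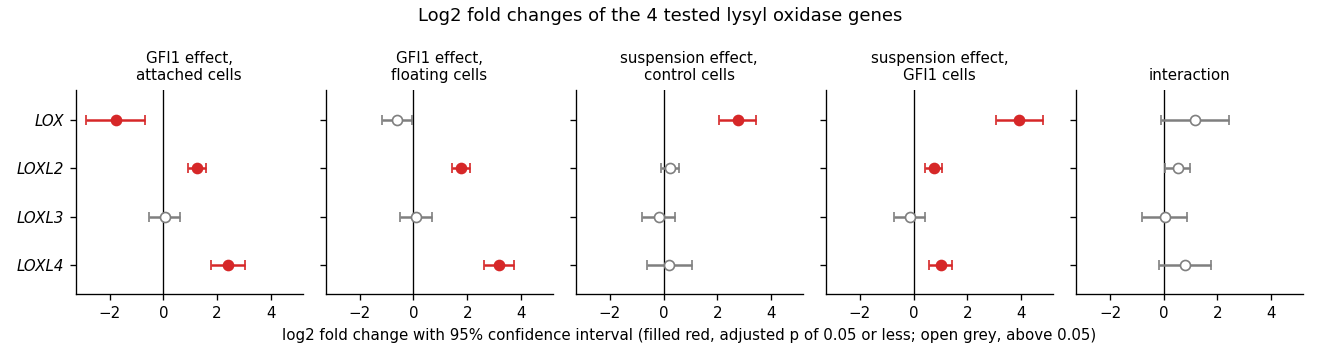
Log2 fold change (x axis) with its 95% confidence interval for the 4 tested members (y axis) in the 4 single-factor comparisons and the interaction, filled red where the adjusted p was 0.05 or less and open grey where it was above. LOX lay left of 0 for GFI1 in attached cells (-1.79) and right of 0 for suspension (2.77 and 3.93), LOXL2 and LOXL4 lay right of 0 for GFI1, and LOXL3 lay near 0 throughout.

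LOXL2, a secreted oxidase that cross-links collagen IV and was the most abundant member, lies on the minus strand of chromosome 8 (23297189 to 23425328 in hg38). Attached controls held 159, 160 and 162 CPM, and attached GFI1 cells 374, 380 and 380 CPM. Each group was tight, and they did not overlap, as was true of 67% of all genes tested. LOXL2 rose by 1.24 ± 0.16 on the log2 scale with GFI1 (adjusted p = 2.28e-07), or 2.36-fold, on 2670 to 2937 counts per control library and 6644 to 8239 per GFI1 library.

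LOXL2 was also higher with GFI1 in suspension. Floating controls held 204, 178 and 182 CPM, and floating GFI1 cells 618, 910 and 382 CPM. All 3 floating GFI1 libraries were above all floating controls, a pattern that 64.4% of all genes showed in one direction or the other, and the log2 fold change was 1.76 ± 0.16 (adjusted p = 5.15e-10). It ranged from 1.42 without floating GFI1 replicate 2 to 2.02 without replicate 3.

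The suspension effect on LOXL2 was smaller than the GFI1 effect in size. In controls it was 0.23 ± 0.16 (adjusted p = 0.28, 95% interval -0.10 to 0.56), although the 2 groups did not overlap, as for 49.9% of all genes. It passed at nearly the same size in a fit of the control libraries alone (0.23, adjusted p = 2.41e-05), without floating GFI1 replicate 2 (0.23, adjusted p = 0.0260) and without replicate 3 (0.23, adjusted p = 0.0181). In GFI1 cells LOXL2 rose by 0.75 ± 0.15 (adjusted p = 0.000434), or 1.68-fold. There the lowest floating library, replicate 3 at 382 CPM, was barely above the highest attached one at 380 CPM. The rise was 0.38 without floating GFI1 replicate 2 and 1.01 without replicate 3, and robust empirical Bayes gave it an adjusted p of 0.0552. The interaction was 0.52 ± 0.22 (adjusted p = 0.149). It was 0.79 without floating GFI1 replicate 3 (adjusted p = 6.28e-06) and 0.15, not called, without replicate 2.

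LOXL4, the member with the largest rise with GFI1 among those tested, lies on the minus strand of chromosome 10 (98247690 to 98268250). It was at 1.85, 0.760 and 1.03 CPM in attached controls, from only 14 to 31 counts per library. In attached GFI1 cells it was at 5.75, 6.55 and 6.71 CPM. No GFI1 library fell into the range of the controls, where 67% of all genes did not overlap. LOXL4 rose by 2.40 ± 0.31 (adjusted p = 2.02e-07), or 5.27-fold.

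Floating controls held 1.19, 1.32 and 1.64 CPM of LOXL4, and floating GFI1 cells 12.96, 18.1 and 7.36 CPM. The groups did not overlap, as for 64.4% of all genes, and the log2 fold change of GFI1 was 3.19 ± 0.28 (adjusted p = 2.31e-10), or 9.14-fold. The floating controls lay inside the range of the attached controls, with a suspension effect of 0.21 ± 0.41 (adjusted p = 0.73) and a wide 95% interval of -0.63 to 1.05. In GFI1 cells suspension raised LOXL4 by 1.00 ± 0.21 (adjusted p = 0.000585), from 0.65 without floating GFI1 replicate 2 to 1.29 without replicate 3. The interaction was 0.79 ± 0.46 (adjusted p = 0.329). It was 1.08 without floating GFI1 replicate 3 (adjusted p = 0.0336) and lowest, at 0.37 and not called, without attached control replicate 1.

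LOXL2 and LOXL4 had the same order of groups, attached control, floating control, attached GFI1 and floating GFI1. In both, the difference between the 2 control groups did not pass the test. Floating controls were below attached GFI1 cells by 1.01 ± 0.16 for LOXL2 (log2 fold change -1.01, adjusted p = 5.30e-06) and by 2.19 ± 0.30 for LOXL4 (-2.19, adjusted p = 6.94e-07), and the GFI1 groups differed as given above. LOX had another order, with both floating groups above both attached groups.

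LOXL3, which lies on the minus strand of chromosome 2 (74532414 to 74555690), had 17 to 40 counts per library. Its level was 1.79, 1.30 and 1.72 CPM in attached controls and 1.41, 1.52 and 2.00 CPM in attached GFI1 cells. Floating controls held 1.19, 1.32 and 1.70 CPM, and floating GFI1 cells 1.76, 1.93 and 0.846 CPM. All 4 groups overlapped. The log2 fold change of GFI1 was 0.04 in attached cells (95% interval -0.54 to 0.62) and 0.09 in floating cells (-0.52 to 0.70). That of suspension was -0.18 in controls (-0.79 to 0.42) and -0.14 in GFI1 cells (-0.72 to 0.44). Changes within these intervals are not excluded.

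LOXL1, an elastin cross-linking member on the plus strand of chromosome 15 (73925989 to 73952137), was near the floor. Its counts were 3, 9 and 0 in attached controls, 5, 13 and 10 in attached GFI1 cells, 1, 2 and 8 in floating controls, and 8, 4 and 7 in floating GFI1 cells. The 0 in attached control replicate 3 allows a level of up to 0.172 CPM, taking 3 counts as the limit, which covers counting error only. All 4 groups overlapped, and the counts were too low for the test.

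Levels of different members can be compared only per gene length. On that scale LOXL2 led in every library. In attached controls it was at 28.1 ± 0.30 CPM per kb (SD, n = 3), LOX at 1.23 ± 0.02, LOXL3 at 0.368 ± 0.060, LOXL4 at 0.332 ± 0.155 and LOXL1 at 0.0612 ± 0.068. LOXL3 and LOXL4 overlapped there.

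The sum of the 5 members per length was 30.1 ± 0.24 CPM per kb in attached controls, 68.9 ± 0.85 in attached GFI1 cells, 42.0 ± 2.27 in floating controls and 121 ± 52.0 in floating GFI1 cells. The last group held 117, 175 and 71.0 CPM per kb in replicates 1, 2 and 3, so its lowest library was near the attached GFI1 level. LOXL2 made up 92.7% to 93.8% of the sum in attached controls and 96.0% to 96.6% in attached GFI1 cells. In floating controls LOXL2 made up 76.9% to 80.2% and LOX 18.4% to 20.7%, the highest LOX share of any group. In floating GFI1 cells LOX made up 4.10%, 5.67% and 2.44%.

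A ratio within a library is free of the scaling between libraries. LOXL2 exceeded LOX per length by 22.4 to 23.7 times in attached controls, by 167 to 202 times in attached GFI1 cells, by 3.71 to 4.35 times in floating controls and by 16.1 to 38.7 times in floating GFI1 cells. The 4 ranges did not overlap except that the floating GFI1 range enclosed that of the attached controls. LOXL4 was below LOX per length in both control groups, with ratios of 0.169 to 0.406 attached and 0.0395 to 0.0525 floating, and above it in attached GFI1 cells, with ratios of 4.49 to 5.50. In floating GFI1 replicates 1, 2 and 3 the ratio was 0.739, 0.499 and 1.16, so LOXL4 was above LOX in 1 of those 3 libraries.

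**Figure D3:**
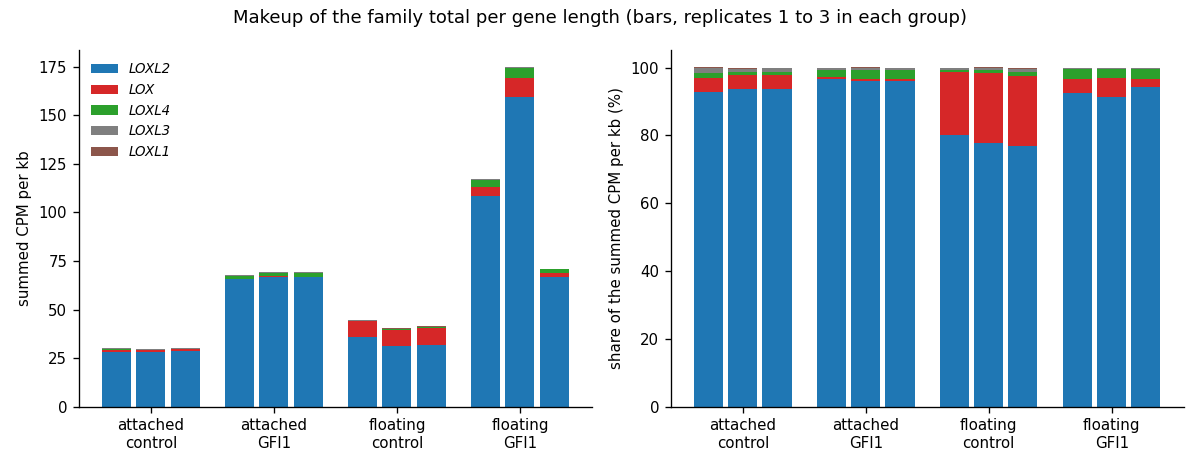
Summed CPM per kb of the 5 members (left) and the share of each member in that sum in percent (right), with 1 stacked bar for each of the 12 libraries and the 4 groups along the x axis. LOXL2 (blue) makes up most of every bar, LOX (red) reaches 18.4% to 20.7% in floating controls, and the sum in floating GFI1 replicate 2 (175 CPM per kb) is above that in replicate 3 (71.0).

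Several genes share exon sequence with members. Without the strand setting of the counting, reads shared with a gene on the opposite strand cannot be told apart. For a gene on the same strand, no strand setting could part them. HTRA2 and DOK1, on the opposite strand, cover 20.7% and 4.78% of the LOXL3 exon bases, and LOXL1-AS1 covers 9.21% of those of LOXL1, so LOXL3 and LOXL1 are uncertain. SRFBP1 covers 2.47% of LOX, and SRFBP1 fell by 0.34 with GFI1 in attached cells (adjusted p = 0.000364). For LOXL2 the shares were 2.01% with ENTPD4, on the same strand, and 2.97% with the antisense transcript AC090197.1. AC090197.1 rose with GFI1 by 1.34 ± 0.32 attached (adjusted p = 0.000852) and 2.36 ± 0.29 floating (adjusted p = 1.51e-07), at only 0.853 and 2.19 CPM in the attached groups. AL139241.1 shares 4.23% of LOXL4 and had 0 to 8 counts per library, too few for a test.

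The floating GFI1 libraries ranked alike in several measures. Replicate 2 was highest and replicate 3 lowest for LOX, LOXL2 and LOXL4, and also for GFI1 itself at 706, 545 and 430 CPM in replicates 2, 1 and 3. The 17 genes of a hypoxia response list had summed levels of 8967, 6861 and 5500 CPM in the same order, against 5889 to 6211 CPM in floating controls and 3609 to 3823 CPM in the attached libraries. PGK1, a glycolytic enzyme of that list whose promoter also drives the GFI1 vector, was at 993, 818 and 682 CPM in replicates 2, 1 and 3, against 455 to 460 CPM in attached GFI1 cells. PGK1 was at 1311 to 1382 CPM in floating controls and 773 to 818 CPM in attached controls, so it was lower with GFI1 in both states. The part of the hypoxia genes or of the GFI1 level in the member values was not tested. Not every list ranked so. In replicates 2, 1 and 3 the epithelial markers summed to 3039, 3099 and 3411 CPM and the collagen IV chains to 722, 742 and 751 CPM. Over all genes, relative to counting noise, replicates 2 and 3 differed more than any other pair of libraries within a group. Mitochondrial counts were 6.15% to 6.72% in the floating GFI1 libraries and 6.15% to 7.11% over all 12 libraries.

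**Figure D4:**
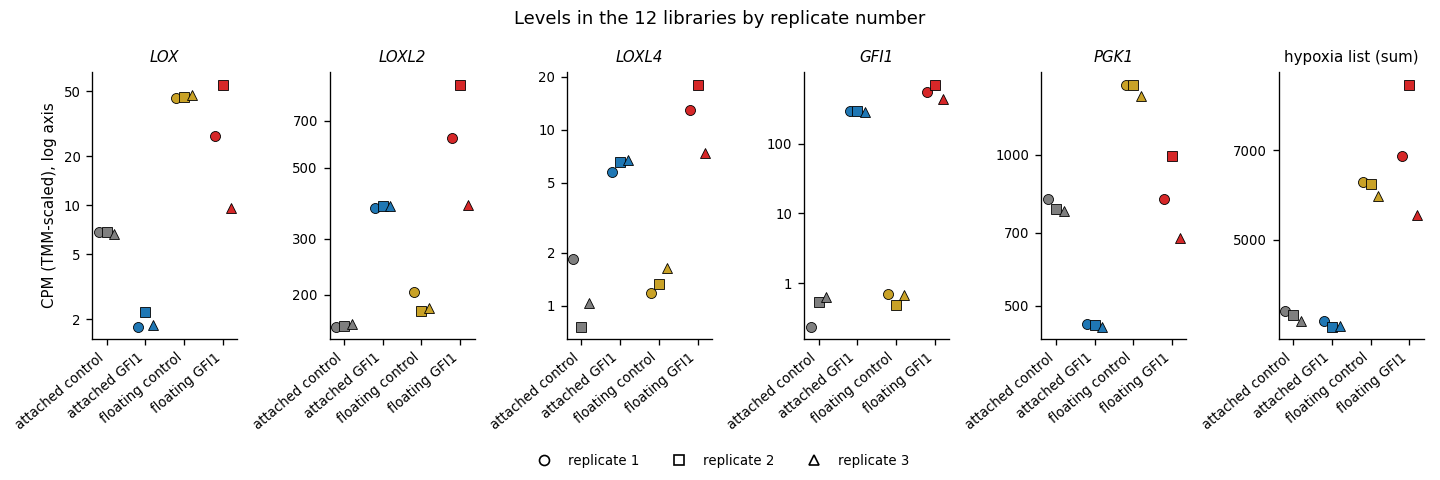
Level in CPM (log y axis, its own range in each panel) of LOX, LOXL2, LOXL4, GFI1, PGK1 and the summed hypoxia response list in the 12 libraries, with the symbol giving the replicate number. In the floating GFI1 group replicate 2 lies above replicate 1 and replicate 1 above replicate 3 in all 6 panels, for example 55.0, 26.6 and 9.60 CPM for LOX.

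For each tested member, the 3 protein-coding genes with the most similar log2 CPM over the 12 libraries were listed, as a description. All 12 points share groups and scaling, and the candidates were 11886 genes. Closest to LOX were ERO1A, an oxidase of disulfide formation in the endoplasmic reticulum (Pearson r = 0.996), LRP1, an endocytic receptor (0.988), and PLCXD1 (0.986). ERO1A was at 110 ± 3.09 CPM in attached controls, 71.4 ± 0.86 in attached GFI1 cells, 222 ± 11.3 in floating controls and 188 ± 56.9 in floating GFI1 cells (SD, n = 3), the same order of groups as LOX. Closest to LOXL2 were ZFYVE26, TMEM158 and CDCP1 (0.985, 0.985 and 0.984), to LOXL4 SERPINB6, SMARCD3 and TOR1AIP2 (0.983, 0.981 and 0.980), and to LOXL3 EDRF1, MERTK and ZNF653 (0.836, 0.731 and 0.728). CDCP1, a transmembrane glycoprotein, went from 23.6 ± 2.10 CPM in attached controls to 86.6 ± 2.49 in attached GFI1 cells and 169 ± 62.2 in floating GFI1 cells. By Spearman's coefficient, 1 of the 3 genes was again among the top 3 for LOX and for LOXL3, and 0 for LOXL2 and LOXL4.

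Genes were counted in 12 lists, on matrix substrates and their modification, enzyme processing, copper delivery, other cross-linkers, hypoxia, TGF-beta, Snail and cell types. The counts are to be read against the shares of all genes called, 62.3% for GFI1 attached, 60.4% for GFI1 floating, 40.1% for suspension in controls and 31.3% for suspension in GFI1 cells. Of the collagen IV chains, the network collagen of basement membranes, 5 of 6 fell and 1 rose with GFI1 in attached cells and in floating cells. The list medians were -1.21 and -1.48, against -0.007 and 0.011 over all genes tested. COL4A1 fell by 2.52 ± 0.05 attached (adjusted p = 2.41e-23) and COL4A2 by 1.88 ± 0.04 floating (adjusted p = 5.50e-22), and COL4A5 rose by 0.89 ± 0.04 attached. LOXL2 rose with GFI1 in the same comparisons. Suspension raised 3 and lowered 2 of the 6 chains in controls, and lowered 2 in GFI1 cells (medians 0.25 and 0.003).

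The fibrillar collagens, the main substrates of LOX, had 7 of 11 genes tested. With GFI1 3 rose and 3 fell in attached cells, and 2 rose and 3 fell in floating cells. COL5A2 fell by 3.26 ± 0.06 attached (adjusted p = 3.81e-24) and by 4.20 ± 0.06 floating (adjusted p = 1.44e-25). COL5A1 rose by 1.05 ± 0.04 floating (adjusted p = 7.14e-17), and COL3A1, at 9 to 12 counts per floating control library and 36 to 46 per floating GFI1 library, by 1.75 ± 0.30. COL11A2 rose by 0.56 ± 0.18 attached. COL1A1 fell by 1.03 ± 0.11 attached and by 1.41 ± 0.13 floating. With suspension 4 rose and 2 fell in controls, and 2 rose and 3 fell in GFI1 cells. COL5A1 fell by 1.76 ± 0.04 in controls (adjusted p = 5.94e-20) and by 0.81 ± 0.04 in GFI1 cells, COL11A2 rose by 0.99 ± 0.17 in controls, and COL27A1 by 0.56 ± 0.10 in GFI1 cells. COL1A1 fell by 0.50 ± 0.11 in controls and by 0.87 ± 0.14 in GFI1 cells.

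Among 13 tested elastic fibre genes, GFI1 raised 6 and lowered 5 in attached cells, and raised 6 and lowered 3 in floating cells, where 62.3% and 60.4% of all genes were called. LTBP3, a latent TGF-beta binding protein, rose by 1.56 ± 0.04 and its relative LTBP4 fell by 2.10 ± 0.05 in attached cells, while FBN2, a fibrillin, rose by 2.04 ± 0.05 in floating cells. Suspension raised 4 and lowered 5 of them in controls and raised 2 and lowered 4 in GFI1 cells. FBN2 fell by 2.10 ± 0.05 in controls and by 1.14 ± 0.05 in GFI1 cells. EFEMP2, which tethers pro-LOX to elastic fibres, rose by 2.06 ± 0.23 in controls (adjusted p = 7.46e-08) and by 1.33 ± 0.20 in GFI1 cells (adjusted p = 1.21e-05).

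The list of processing enzymes and scaffold proteins changed in all 7 tested genes with GFI1, with 4 up and 3 down attached and 3 up and 4 down floating. FN1, fibronectin, fell by 1.20 ± 0.04 attached and by 1.85 ± 0.05 floating (adjusted p = 1.37e-21). FN1 rose with suspension by 1.38 ± 0.04 in controls and 0.73 ± 0.04 in GFI1 cells. LOX fell in attached cells and rose with suspension in the same comparisons. ADAMTS14, a procollagen N-proteinase, rose from 0.416 ± 0.111 to 23.7 ± 0.70 CPM in attached cells (log2 fold change 5.81 ± 0.16). The proteinases that cut the LOX propeptide are added here after their values were seen. BMP1 rose by 0.78 ± 0.05 with GFI1 attached (adjusted p = 4.38e-13). TLL1 had 14 to 23 counts per library in attached controls and 0 to 1 in attached GFI1 cells, and 13 to 23 counts in floating controls and 0 to 2 in floating GFI1 cells, and fell in both comparisons. POSTN, periostin, had 0 counts in every library. In suspension 2 of 7 rose in controls, and 3 rose and 1, THBS1, fell in GFI1 cells (-1.24 ± 0.06).

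The copper delivery genes had list medians near 0. With GFI1 3 of 7 rose and 1 fell attached, and 1 rose and 3 fell floating, with medians of 0.15 and 0.03, so that 4 of 7 were called in each state, beside 62.3% and 60.4% of all genes. SLC31A2 had the largest of these values at 1.49 ± 0.64 attached (adjusted p = 0.0480), from 2 to 6 counts per control library and 6 to 24 per GFI1 library. SLC31A1, the copper importer, fell by 0.50 ± 0.05 attached and 0.60 ± 0.05 floating. ATP7A, which loads copper into secreted enzymes, rose with suspension by 0.68 ± 0.05 in controls and 0.54 ± 0.05 in GFI1 cells, as the only gene of the list to rise in either, and ATOX1 fell by 0.22 ± 0.07 in GFI1 cells.

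Of 17 tested collagen modification and folding genes, 13 fell and 3 rose with GFI1 attached, and 11 fell and 3 rose floating (medians -0.27 and -0.35). PLOD2, the hydroxylase that makes the lysines of stable cross-links, fell by 1.62 ± 0.06 attached and 1.43 ± 0.06 floating. Suspension raised 9 and lowered 2 in controls, and raised 9 and lowered 1 in GFI1 cells. P4HA1, a proline hydroxylase subunit, rose by 1.38 ± 0.10 and 1.55 ± 0.10. Of 6 tested genes of other cross-linkers and amine oxidases, 3 rose and 1 fell with GFI1 attached and 2 rose floating. PXDN, the peroxidase that cross-links collagen IV, rose by 2.47 ± 0.05 attached and 1.85 ± 0.05 floating. Suspension raised 2 and lowered 1 in controls, and raised 1 and lowered 2 in GFI1 cells. TGM2, a transglutaminase, fell with suspension by 0.48 ± 0.06 in controls and 0.78 ± 0.06 in GFI1 cells. With GFI1, TGM2 rose by 1.34 ± 0.06 attached and 1.04 ± 0.06 floating.

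The hypoxia response list, known targets of hypoxia-inducible factors without LOX, rose with suspension in nearly all its genes. In controls 16 of 17 rose and none fell (median 1.22), with PFKFB3 at -0.004 as the exception, and in GFI1 cells 17 of 17 rose (median 1.29, and 17 of 17 with a median of 1.47 without floating GFI1 replicate 3). BNIP3L, a mitophagy receptor, rose by 1.60 ± 0.08 in controls (adjusted p = 1.90e-14) and by 1.40 ± 0.07 in GFI1 cells (adjusted p = 3.20e-13). With GFI1, 9 rose and 6 fell attached, and 8 rose and 6 fell floating. VEGFA, the angiogenic factor, rose by 2.11 ± 0.13 attached and 2.17 ± 0.12 floating, whereas PFKFB3, a regulator of glycolysis, fell by 2.42 ± 0.08 and 2.00 ± 0.08.

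Of 6 TGF-beta response genes, 3 rose and 3 fell with GFI1 attached, and 3 rose and 1 fell floating. TGFBI fell by 1.35 ± 0.05 attached and 1.57 ± 0.05 floating. Suspension raised 1 and lowered 4 in controls, where CCN2 fell by 1.98 ± 0.20, and raised 2 and lowered 3 in GFI1 cells, where PMEPA1 rose by 0.69 ± 0.11. Of 10 genes of Snail and the epithelial-mesenchymal transition, in which LOXL2 and LOXL3 are known partners of the SNAI1 protein, 3 rose and 5 fell with GFI1 in both states. SNAI1 rose by 1.89 ± 0.15 attached (adjusted p = 3.47e-11) and 2.58 ± 0.16 floating. CDH1, E-cadherin, fell by 4.22 ± 0.07 and 4.42 ± 0.08. Mesenchymal genes of the list fell as well, VIM, vimentin, by 3.09 ± 0.11 and 2.17 ± 0.10 and CDH2, N-cadherin, by 1.71 ± 0.08 and 1.80 ± 0.10. Among the transcription factors, SNAI2 fell by 2.72 ± 0.49 and 2.44 ± 0.57 and TWIST2 by 2.16 ± 0.16 and 1.86 ± 0.16, while ZEB1 rose by 0.64 ± 0.06 and 0.75 ± 0.06 and ZEB2 by 1.75 ± 0.60 and 2.95 ± 0.57. Suspension raised 1, TWIST1 by 0.46 ± 0.14, and lowered 3 in controls, and in GFI1 cells it raised VIM by 0.97 ± 0.11 and lowered 2.

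Fibroblast and epithelial markers were counted as cell type checks. Of 4 tested fibroblast markers, 2 rose with GFI1 attached, and 3 rose and 1 fell floating. PDGFRB went from 0.133 ± 0.066 to 2.22 ± 0.37 CPM in attached cells, and PDGFRA fell by 1.38 ± 0.42 floating and rose by 1.91 ± 0.45 with suspension in controls as the only one, with none called in GFI1 cells. The 6 epithelial markers gave 5 down and 1 up with GFI1 attached, 5 down floating, and 4 down with suspension in either cell type. KRT7 fell with suspension by 0.71 ± 0.04 and 0.61 ± 0.04. The part of these marker changes in the member values was not tested.

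**Figure D5:**
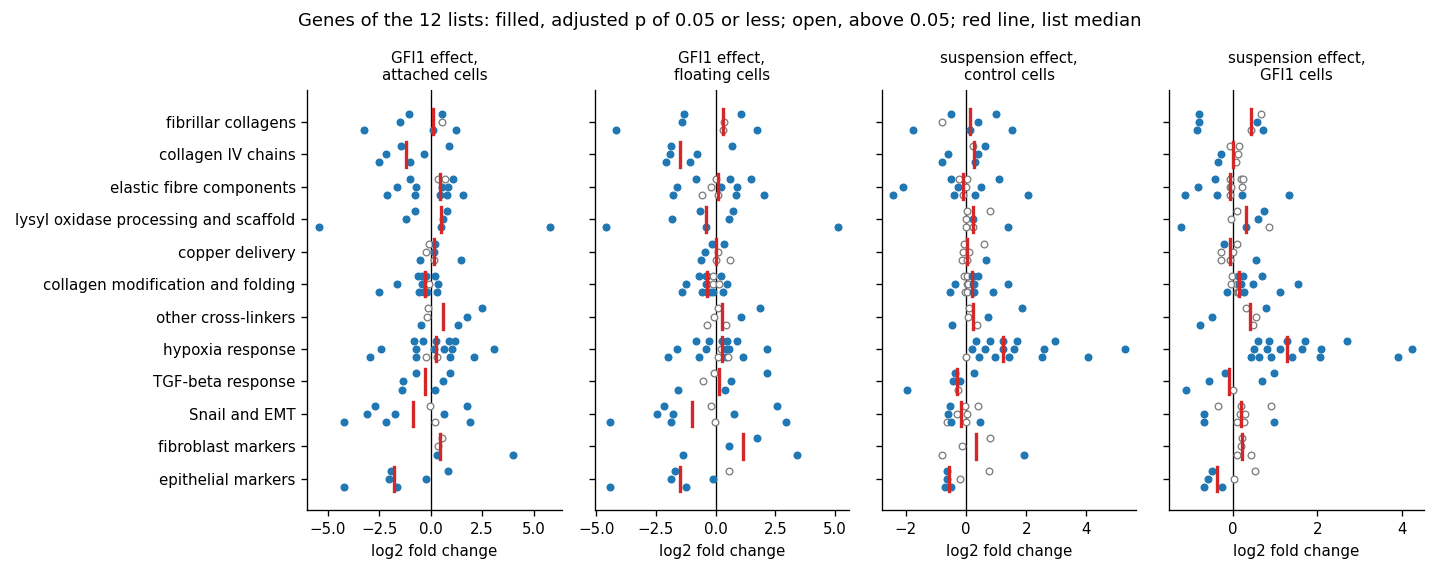
Log2 fold change (x axis) of each tested gene of the 12 lists (y axis) in the 4 single-factor comparisons, filled where the adjusted p was 0.05 or less and open where it was above, with a red line at the list median. The hypoxia response list lies right of 0 in both suspension panels (medians 1.22 and 1.29), and the collagen IV chains lie mostly left of 0 in both GFI1 panels (medians -1.21 and -1.48).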

How the data were processed

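The deposited values are raw counts of reads per gene, which the authors made from poly-A RNA-Seq libraries on an Illumina NovaSeq. The methods of the study name Hisat2 and featureCounts, whereas the submitters' processing notes name Bowtie2 and HTSeq with hg38, so the counting tool is uncertain. The annotation release and strand setting are not given in the sources used here, and exon overlaps were taken from GENCODE 44, in which 99.1% of the genes were found.

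Counts were analysed with edgeR 4.0.16 in R 4.3.3. Genes passing filterByExpr (minimum count 10, total 15) were scaled by TMM, and a quasi-likelihood fit of all 12 libraries took a mean for each of the 4 groups. The groups shared the estimate of spread of each gene. For LOX, LOXL2 and LOXL4, intervals may therefore be too narrow in comparisons with floating GFI1 cells and too wide in the others. Two-sided p-values were adjusted after Benjamini and Hochberg over all 17829 genes, and standard errors were the log2 fold change divided by the root of F. CPM per kb used the deposited gene length. Members and lists were chosen with earlier results of these data known. Named genes were the members, GFI1, overlapping genes and the 3 genes most like each member. List genes were mostly taken from the rising and the falling gene of smallest adjusted p in each comparison. Not every gene which that rule picks is named in the text, and a few others were chosen after their values were seen. DESeq2 1.42.0, other scalings, filters, fits and left-out libraries were alternatives. The code was tested on simulated data. The result of 1 list gene is not reported here.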

Additional observations from a re-analysis of the deposited data

How the results depend on the processing

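Over the alternatives, LOX, LOXL2 and LOXL4 kept their direction in all comparisons, except that LOXL4 with suspension in control cells, not called, ran from -0.046 without attached control replicate 2 to 0.63 without replicate 1. Leaving out single libraries gave 1 to 2 called members for suspension in control cells and 0 to 3 for the interaction, against 1 and 0. The counts were 2 for suspension in control cells both without a low-count filter and with only the groups compared, through LOXL2, and 2 for the interaction without the filter, through LOX (1.18) and LOXL2 (0.54). Without that filter, the prior degrees of freedom of the fit went from 16.1 to infinite, so the spread of a single gene no longer entered its test. LOX with GFI1 in floating cells passed without the filter (-0.63, adjusted p = 6.09e-16), and LOXL1, testable only there, did not pass in any comparison. LOXL2 with suspension in GFI1 cells is lost when a fold change of 2 is also asked. Calls lost or gained through floating GFI1 replicates 2 and 3 stand in the report. LOXL3, never called, changed sign near 0. Without single libraries it ran from -0.10 to 0.14 for GFI1 attached, from -0.12 to 0.39 for GFI1 floating, from -0.37 to 0.16 for suspension in GFI1 cells, from -0.19 to 0.35 for the interaction, and from -0.30 to 0.21 for floating GFI1 against attached control, which was 0.056 with library size only. The collagen IV median for suspension in GFI1 cells went from 0.003 to -0.017 without floating GFI1 replicate 3. Scaling by library size only moved the median of all genes to 0.14 for both GFI1 effects, and the members' calls held. The replicate numbers did not pair the libraries, since the 18 correlations of same-numbered deviations ran from -0.031 to 0.031. With the replicate block, LOX with GFI1 in floating cells passed (-0.76, adjusted p = 0.00743), and no other member call changed. LOXL1 at 0 to 13 counts, and LOXL3 and LOXL4 in controls at 14 to 31, are limited by depth.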
